A study of Mus musculus with 2 samples.

Results

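Of the 5035 autosomal TR binding sites (TRBS) in the deposited list, 430 had their summit on repeat sequence. A TRBS was taken as a repeat-summit TRBS when the base at its summit, where the fragments pile up highest, was soft-masked, that is, written in lower case in the GRCm38.p6 sequence of NCBI. These 430 sites were 8.54% of the autosomal TRBS, with a 95% Wilson interval of 7.80% to 9.34%, whereas 33.5% of the assembled autosomal sequence was masked. Windows of the same width 2 kb outside the autosomal TRBS were masked at 25.4% of their bases on average. The 430 sites were divided into 96 mostly masked TRBS, with 80% or more of the interval masked, and 334 partly masked TRBS. The other 4605 autosomal TRBS had an unmasked summit, and the whole list held 5107 peaks.

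The mice were C57BL/6J males aged 8 to 12 weeks, and the chromatin was that of their brown adipose tissue, with a GS-tagged TRα1 expressed in brown adipocytes and in no other cell type of the tissue, per the labels. All animals had received food with propylthiouracil, which blocks thyroid hormone synthesis, for 2 weeks, and then thyroid hormone during the last 24 h. There was 1 ChIP library and 1 input library from animals of the same treatment, with no replicate, so that no test between conditions and no replicate error could be given. The number of animals behind each library is not given in the sources used here. The intervals on shares are 95% Wilson intervals, and those on differences between shares are 95% Newcombe intervals. Both cover counting error over the sites of this list only.

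TRα1 is the receptor for T3 that predominates in many tissues outside the liver. It binds DNA mainly as a heterodimer with RXR, on a DR4 element, which is a direct repeat of a hexamer separated by 4 bases of any kind. Mammalian genomes carry many copies of repeated DNA, such as tandem arrays of short units, satellites around centromeres and dispersed elements that moved by retrotransposition. Short reads from such copies are difficult to assign to one place, and some satellites have far fewer copies in the assembly than in the chromosomes.

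The DR4 was searched as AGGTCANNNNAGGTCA on both strands of the whole TRBS, with at most 2 mismatches over the 12 half-site bases. The elements below show what the search finds at its strictest, in the 6 partly masked TRBS that hold a DR4 without any mismatch (1.80% of the class, against 0.80% of the TRBS with an unmasked summit, with an interval of the difference from −0.02 to 3.07 points). Sites are named by the gene with the nearest protein-coding TSS, which can be far away. Each element is written 5′ to 3′ on the strand of the element in GRCm38, with the half-site bases equal to the hexamer in capitals and the spacer in lower case.
Kif16b, chr2:142878414-142878429, minus strand: AGGTCAggtcAGGTCA
Gse1, chr8:120328820-120328835, plus strand: AGGTCActgaAGGTCA
Glrx5, chr12:105039566-105039581, minus strand: AGGTCAggtcAGGTCA
Usp25, chr16:76971406-76971421, minus strand: AGGTCAggtcAGGTCA
Higd1a, chr9:121874900-121874915, minus strand: AGGTCAgggcAGGTCA
Tbc1d20, chr2:152275126-152275141, plus strand: AGGTCAcataAGGTCA

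By contrast, none of the 96 mostly masked TRBS held a DR4 with at most 1 mismatch, which allows a share of up to 3.85%. Their 5 DR4 elements, shown with the mismatches to the hexamer in lower case, had 2 mismatches each and lay wholly in masked bases.
Adgrl3, chr5:81852676-81852691, plus strand: AGGTCAtccaAGGTac
Baz2b, chr2:60059703-60059718, minus strand: AGGTCAgtttgGGaCA
Zhx3, chr2:160825217-160825232, plus strand: gGGTCAggccAGGgCA
Snurf, chr7:59754355-59754370, minus strand: AGGTCAcctgAGtTaA
Pi15, chr1:17471596-17471611, minus strand: AGGTCAggcatGGTgA

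Partly masked TRBS held a DR4 more often than other sites, and mostly masked TRBS rarely did. Across all autosomal TRBS, 32.1% held a DR4 with at most 2 mismatches. The share was 34.9% (150 of 430, interval 30.5% to 39.5%) in the repeat-summit TRBS as a whole. It was 43.4% (145 of 334, 38.2% to 48.8%) in the partly masked TRBS against 31.8% (1465 of 4605, 30.5% to 33.2%) in the other autosomal TRBS, a difference of 11.6 percentage points with an interval of 6.21 to 17.1. In the mostly masked TRBS it was 5.21% (5 of 96, 2.24% to 11.6%), which was 26.6 points below the other autosomal TRBS.

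The background came from windows as wide as the TRBS, placed 2 kb outside both edges and free of peaks. A DR4 was present in 4.69% of the 639 flanking windows of the partly masked TRBS, so that the share inside the TRBS was 9.25 times that of the flanks. In the mostly masked TRBS the flanks held a DR4 in 3.85% of 156 windows, a ratio of 1.35, and the intervals of the TRBS and of the flanks overlapped. Without the satellite TRBS the flanks held one in 4.35% of 138 windows, a ratio of 1.60, and the intervals again overlapped. The flanks of the other autosomal TRBS held one in 5.53% of 8938 windows.

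**Figure D1:**
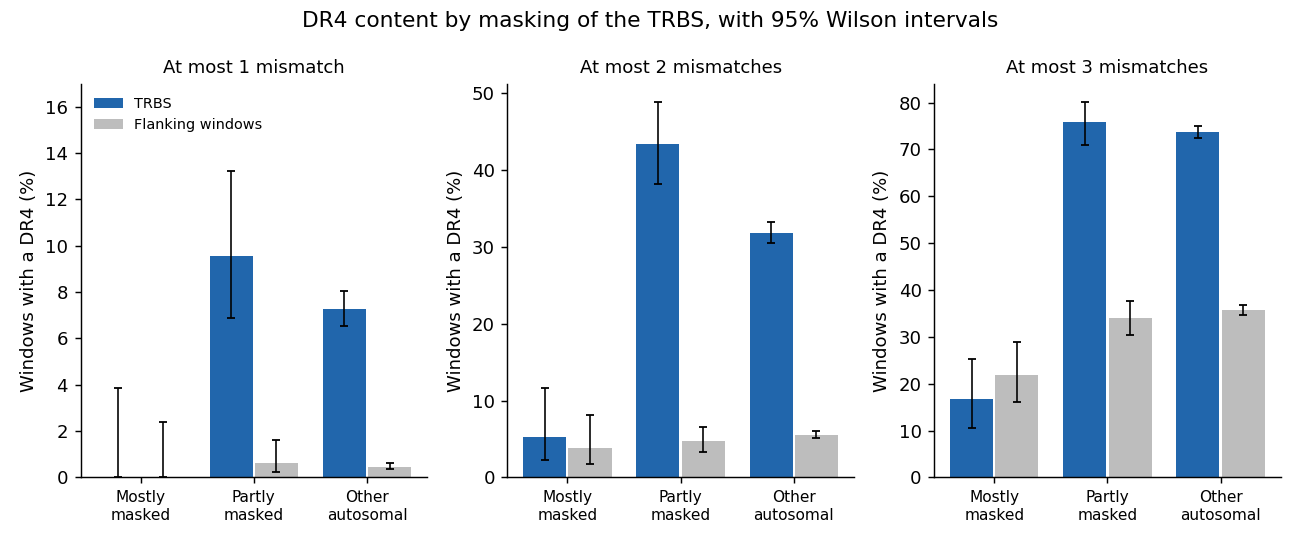
Share of TRBS and of flanking windows with a DR4 (%), for at most 1, 2 and 3 mismatches, in the mostly masked (n = 96), partly masked (n = 334) and other autosomal TRBS (n = 4605); bars are shares, error bars are 95% Wilson intervals, and the 3 panels have different vertical scales. At each limit the partly masked TRBS stand above their flanks, whereas the mostly masked TRBS overlap theirs.

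The gap between the partly masked and the other autosomal TRBS depended on the mismatches allowed. With at most 1 mismatch, which 7.27% of all autosomal TRBS met, 32 of the 430 repeat-summit TRBS held a DR4, all of them partly masked. This was 9.58% of the partly masked and 7.25% of the other autosomal TRBS, a difference of 2.33 points whose interval, −0.50 to 6.03, included 0. With at most 3 mismatches the shares were 75.7% and 73.7%, again with an interval that included 0. The mostly masked TRBS were the lowest at each limit.

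The masking rule and the DR4 also shared bases. The DR4 tended to lie near the summit, with a median distance of 20.5 bp between its centre and the summit in the 145 partly masked TRBS that held one, so a masked DR4 and a masked summit often came together. Among these 145 sites the best element was wholly masked in 48 (33.1%), in part masked in 35 and unmasked in 62 (42.8%). In the 1465 other autosomal TRBS with a DR4 it was wholly masked in 53 (3.62%). When only elements without a masked base were counted, the partly masked TRBS fell below the others, with 19.8% against 29.3%, a difference of −9.58 points with an interval of −13.7 to −4.79. Since the rule uses the masking of the summit, neither comparison is independent of it.

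The single half-site, AGGTCA or GGGTCA on either strand, gave the same order for the mostly masked TRBS. It was present in 21.9% of them (21 of 96) and in 34.0% of their flanks, against 76.3% of the partly masked and 73.6% of the other autosomal TRBS. None of the 24 satellite TRBS held it. Without them the share was 29.2% (21 of 72, 19.9% to 40.5%), against 36.2% of the flanks (28.7% to 44.5%), with overlapping intervals. The palindrome of C/EBP factors, which act in adipocyte differentiation, was found with at most 1 mismatch to TTGCGCAA in 10.5% of the partly masked and in 12.2% of the other TRBS. It was present in 6.25% of the mostly masked TRBS (6 of 96), and in 8.33% (6 of 72) without the satellite TRBS. A motif match describes the letters of the window and not the binding of a factor.

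Enrichment differed strongly between both classes. The fold of a TRBS is the deposited ratio of ChIP pileup to input background at the summit, with 1 added to both. Its median was 9.11 in the partly masked TRBS (quartiles 6.80 and 13.9), close to 9.97 in the other autosomal TRBS, and 4.26 in the mostly masked TRBS (2.96 and 5.39). The median number of ChIP fragments at the summit, recovered from the fold and the Poisson p-value, was 15 in the partly masked and 17 in the other TRBS. Without the 24 satellite TRBS described below, it was 8 in the mostly masked TRBS. Few fragments stood behind many of these sites: 47 of the 96 mostly masked TRBS (49.0%) had fewer than 10 fragments, against 17.7% of the partly masked and 15.1% of the other TRBS.

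A score of at least 60, the threshold named in the methods of the study, was reached by 82.6% of all autosomal TRBS, by 272 of the 334 partly masked TRBS and by 41 of the 96 mostly masked TRBS. Of these 41, 24 belonged to the satellite. The remaining mostly masked TRBS reached this score in 23.6% of cases (17 of 72), which was 57.8 points below the partly masked TRBS with an interval of −67.0 to −45.9.

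**Figure D2:**
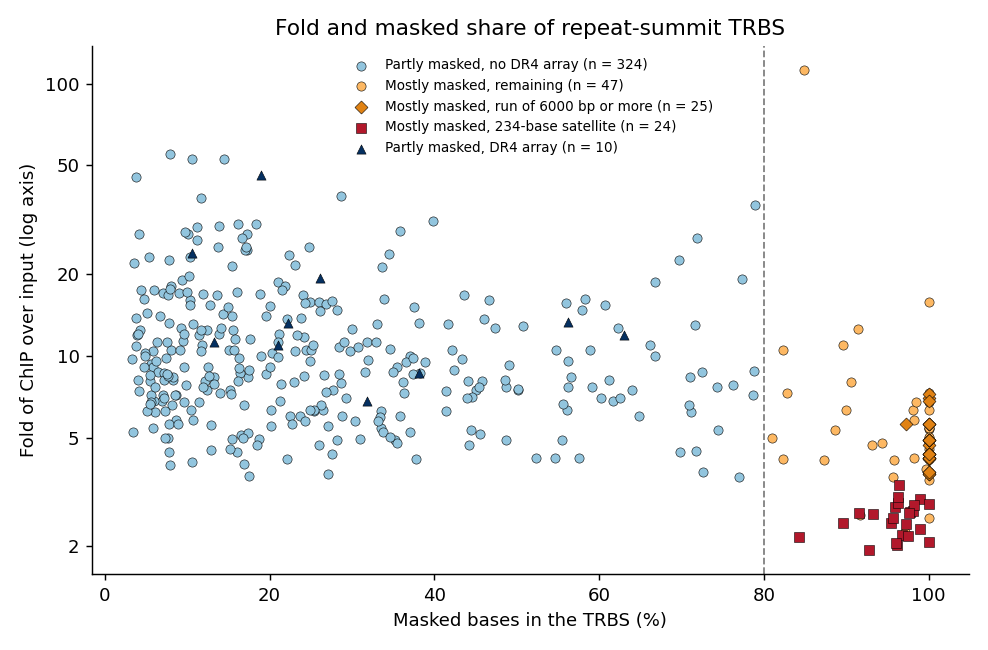
Fold of ChIP over input (log axis) against the masked share of the TRBS (%) for the 430 repeat-summit TRBS, with 1 point per TRBS and the limit of 80% as a dashed line. The partly masked TRBS range from 3.57 to 55.3, with the highest folds at low masked shares, the 24 satellite TRBS lie between 1.93 and 3.35, and 1 mostly masked TRBS stands alone at 112.

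Just above the limit of 80% was, among others, a TRBS far from Adgrl3 (82.3% masked, fold 10.5). Just below it were a TRBS in an exon of Prl7d1, a prolactin-family gene (78.9%, fold 35.7), one beyond Prkcq, a protein kinase C gene (78.8%, fold 8.82), and one 280 bp upstream of the TSS of Clec2d, a C-type lectin (78.6%, fold 7.17).

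What the masked sequence was could be told for a part of the sites only. The reference does not name the families of its masked sequence and no repeat library was used, so types were set by the letters alone. In the summit window, the summit base with 50 bases on each side, 30 of the 430 TRBS (6.98%, 4.93% to 9.78%) were arrays of a unit of 1 to 60 bases, and 22 were arrays of a longer unit. A further 98 (22.8%, 19.1% to 27.0%) were no array but had masked 16-base words that occurred 100 or more times in the genome, as a median. For 262 the median was between 10 and 100, and for 18 it was below 10.

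Both classes differed in type as well. Short-unit arrays were 26 of the 96 mostly masked and 4 of the 334 partly masked TRBS (1.198%), beside 1.29% of all autosomal TRBS. High-copy sequence was found at 39 of the former and 59 of the latter (17.7%). This type needs masked words in the summit window, which the choice of the members favours, so the fitting background is the 1143 autosomal TRBS with such words, of which 193 were high-copy. The masked run that holds the summit had a median length of 776.5 bp in the mostly masked (1409 bp without the satellite TRBS) and of 28 bp in the partly masked TRBS. In 244 of the 334 partly masked TRBS (73.1%) this run was under 50 bp, and the shortest was 19 bp, so that most of the partly masked TRBS were unmasked sequence with a short masked stretch at the summit. The median number of genome occurrences over all words of their summit window was 5, against 3 in the other autosomal TRBS and 137.25 in the mostly masked TRBS. Without the satellite TRBS the last value was 515.5.

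Some partly masked TRBS had tandem arrays of a short unit that matches the DR4 over and over. When a unit with the letters AGGTC is repeated, a hexamer starts every 5 bases and each hexamer forms a DR4 with the hexamer that starts 10 bases further. Of the repeat-summit TRBS 2 had 4 or more DR4 elements without a mismatch, and the window of the one nearest to Usp25 is printed here, with each hexamer AGGTCA in capitals.
Usp25, chr16:76971374-76971454, minus strand: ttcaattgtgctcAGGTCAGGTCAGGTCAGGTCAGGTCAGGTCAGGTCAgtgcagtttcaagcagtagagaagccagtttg

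The other one was in an intron of Kif16b, a kinesin motor of endosome transport, 23121 bp downstream of its TSS. It had 87 ChIP fragments (exact Poisson interval 69.7 to 107) over an input background of 0.91 fragments, a fold of 46.0, and 12 DR4 elements, of which 4 had no mismatch. The printed site lay 42292 bp upstream of the TSS of Usp25, which encodes a deubiquitinase. It had 5 elements without a mismatch but only 12 fragments over a background of 0.50, a fold of 8.64. Thus the number of perfect elements did not order these sites by fold.

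A DR4 array was defined, after the data had been examined, as at least 4 elements with at most 2 mismatches on one strand whose starts were 5 or 10 bases apart. Of the repeat-summit TRBS 10 held one (2.33%, against 0.44% of all autosomal TRBS), all partly masked, with folds from 6.83 to 46.0 and a median of 12.5. Beside Kif16b and Usp25 they had as nearest genes Adcy9 (fold 23.8), Ints10 (19.3), Mad1l1 (13.3), Scarb2 (13.2), Tagln (11.9), Glrx5 (11.2), 9430069I07Rik (10.96) and Tnks1bp1 (6.83). Another 12 TRBS with an array had an unmasked summit (0.26% of the other autosomal TRBS), with a median fold of 20.2. The strongest was nearest to Ginm1, with a fold of 92.8. Of the 412 DR4 arrays of the autosomes 330 were at least 80% masked, so that these shares are not independent of the rule. At 9 repeat-summit TRBS the masked run at the summit had the unit AGGGC in place of AGGTC, and each of the 9 held a DR4. A run of this unit matches the DR4 with exactly 2 mismatches by its letters alone, so that its elements are a consequence of the limit used. Most of the 10 array sites were of this kind: 7 had no DR4 without a mismatch, and the summit run of 6, that of Kif16b included, had the unit AGGGC.

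On the autosomes 412 DR4 arrays were found, and 24 of them (5.83%, 3.95% to 8.52%) met a TRBS, 10 of these a repeat-summit TRBS. Of chains with 1 to 3 elements 0.69% did (1796 of 259869). Of the 24 arrays with at least 1 element without a mismatch 6 met a TRBS (25.0%, 12.0% to 44.9%), and of the 8 arrays with at least 4 such elements 4 did (50.0%, 21.5% to 78.5%). The longer window of an array by itself meets more sequence than a single element, and the part of that in these shares was not tested.

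A shorter run of the same kind was in an intron of Akt1, the kinase at the centre of insulin signalling. This TRBS, 3802 bp downstream of the TSS, had a fold of 53.0 over a background of 0.92 fragments and held 1 DR4 with 2 mismatches, centred 1.5 bp from the summit, wholly masked.

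The 10 partly masked TRBS with the highest folds had folds of 30.5 or more. Among them were sites in introns of Akt1 (fold 53.0), Coq10a (52.6), Kif16b (46.0) and Chd3 (37.8), in the exon of Prl7d1 (35.7), and between genes with the nearest TSS at Gadd45g (45.5), Fxyd3 (38.7), Elof1 (31.2) and, 104398 bp away, Foxn2 (30.5). Coq10a is linked to coenzyme Q of the respiratory chain, Chd3 is a chromatin remodeller, Gadd45g a stress-response gene and Elof1 a factor of transcription elongation. Of the 10 sites 5 held a DR4 with at most 2 mismatches, among them those at Akt1, Kif16b, Fxyd3 and Chd3. This was near the 43.4% of all partly masked TRBS, beside 32.1% of all autosomal TRBS. The other 5 had none at this limit, so such a DR4 was not a feature of every strong site. Those at Coq10a, Prl7d1, Elof1 and Foxn2 held one with 3 mismatches, and that at Gadd45g held none.

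Of the 32 repeat-summit TRBS with a DR4 of at most 1 mismatch, 16 were in introns, 14 between genes, and 18 within 30 kb of a coding TSS. Of all autosomal TRBS 47.3% were in introns and 57.1% within 30 kb, so that these counts were close to the background. The best element was unmasked in 18, wholly masked in 9 and in part masked in 5. After Kif16b the highest folds were in introns of Phc2 (25.1), Faf1 (12.4), Glrx5 (11.2) and Psph (10.5), in an intron of Asic2 80717 bp from the TSS of 5530401A14Rik (21.3), and 100482 bp downstream of the TSS of Gse1 (18.04). Between genes they were nearest to Rdx (16.01, at 50392 bp), Idh3a (14.7, at 7765 bp), Tra2b (14.7, at 31312 bp) and Zfp703 (11.2). Idh3a encodes a subunit of isocitrate dehydrogenase of the citric acid cycle, Psph an enzyme of serine synthesis, and Glrx5 a mitochondrial protein of iron–sulfur cluster assembly. Its TRBS, in an intron of Glrx5, combined an unmasked array of 4 elements, 1 without mismatch, with a masked dinucleotide repeat at the summit.

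The other members of this set had folds under 10. Their nearest coding TSS, in or outside the gene and up to 99609 bp away, were those of Ackr3 (9.95), Aven (9.67), Phf20 (9.57), Sgtb (9.47), Taf1d (9.20), Bod1 (9.09), Usp25 (8.64), Deptor (8.49), Slc12a8 (8.12), Mat2a (7.99), Higd1a (7.69), Ralgps1 (7.18), Mmp28 (7.14), Vax1 (6.99), Tbc1d20 (6.31), Gga1 (5.98), Rnf10 (5.98), Samd7 (5.75), Babam2 (4.94), Clca3b (4.90) and Rgma (4.68). Deptor is an inhibitor of the mTOR kinase, Mat2a makes S-adenosylmethionine and Higd1a is a mitochondrial protein. The median fold of all 32 was 9.15, against 8.62 for the 189 partly masked TRBS without a DR4.

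The sites named by Slc12a8 and Zfp703 held the same element and shared sequence at the summit. The first was in an intron of Slc12a8 and the second between genes, 208108 bp upstream of the TSS of Zfp703. Both sites shared at least 10 of the 16-base words of the summit window, masked or not. Their elements were wholly masked and identical in all 16 bases.
Zfp703, chr8:26769211-26769226, minus strand: AGGTCAgaagAGGaCA
Slc12a8, chr16:33588973-33588988, plus strand: AGGTCAgaagAGGaCA

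The fold was 11.2 with 15 fragments at the site named by Zfp703 and 8.12 with 17 fragments at that in Slc12a8, over backgrounds of 0.43 and 1.22. In all, 64 of the 430 repeat-summit TRBS shared at least 10 of the 16-base words of the summit window with another one, in 16 groups, and 366 did not. Beside the satellite, the largest group had 5 TRBS, nearest to Scarb2, Ints10, Fbxl2, 9430069I07Rik and Fth1, on 5 chromosomes. Each held a DR4, 3 of them as an array, with folds from 10.96 to 19.3 and 50 to 102 copies of the masked words.

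Seen from the side of the DR4, masked elements were found in TRBS less often than unmasked ones, except for perfect elements. On the autosomes 63031 DR4 sites with at most 2 mismatches were wholly masked, and 250 of them (0.40%, 0.35% to 0.45%) lay inside a TRBS, 130 of these in a repeat-summit TRBS. Of the 173678 unmasked sites 1654 did (0.95%, 0.91% to 1.00%). For sites with exactly 1 mismatch the shares were 0.55% of 4180 masked and 2.44% of 12804 unmasked sites. For sites without a mismatch the order was turned, with 21 of 188 masked sites (11.2%, 7.42% to 16.5%) and 35 of 756 unmasked sites (4.63%, 3.35% to 6.37%). However, the 21 masked sites were in 7 TRBS, and 17 of them in 4 TRBS with a DR4 array, whereas the 35 unmasked sites were in 34 TRBS. Overlapping elements of one array are not independent, and outside arrays 4 masked sites without a mismatch lay in 3 TRBS.

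**Figure D3:**
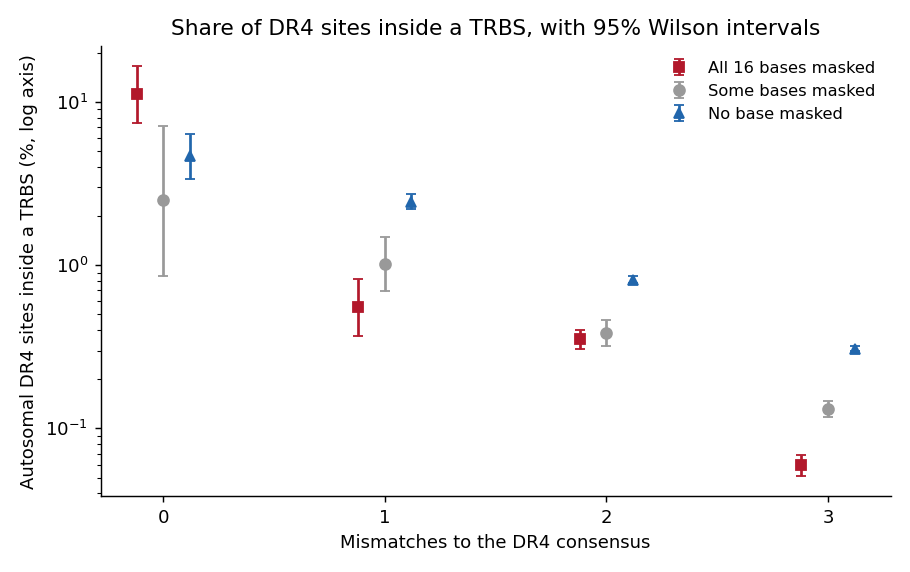
Share of autosomal DR4 sites that lie inside a TRBS (%, log axis) by the number of mismatches to the consensus, for sites with all, some or none of their 16 bases masked; points are shares and error bars 95% Wilson intervals. Wholly masked sites are below unmasked sites at 1, 2 and 3 mismatches and above them at 0, where 17 of the 21 masked sites lie in 4 TRBS with a DR4 array.

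The masked elements were also those with more copies, which masking by its nature largely fixes. In partly masked TRBS the 125 wholly masked elements had a median of 249 exact occurrences of their 16 bases in the genome, and none occurred once. These elements were in 49 TRBS, and 78 of them in 9 TRBS with an array, where they overlap. The 47 elements outside arrays, in 40 TRBS, had a median of 79, and again none occurred once. The 76 unmasked elements, in 66 TRBS, had a median of 3, and 14 of them (18.4%) occurred once. The other autosomal TRBS had the same pattern, with medians of 243 for 120 wholly masked and 3 for 1578 unmasked elements, of which none and 288 (18.3%) occurred once.

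The mostly masked TRBS were led by 1 site that stood apart. It was intergenic, 367997 bp upstream of the TSS of Arid1b, at chr17:4626167-4626596, and had 282 ChIP fragments (250.04 to 317) over a background of 1.52. Its fold of 112 was above that of every other autosomal TRBS, the highest of the unmasked-summit sites being 100.004. The sequence around the summit was an array of the 5-base unit TGGAA, shown with each full unit in capitals, with 95.05% of bases equal to the base one unit away. It held no DR4 with up to 3 mismatches.
Arid1b, chr17:4626295-4626375, minus strand: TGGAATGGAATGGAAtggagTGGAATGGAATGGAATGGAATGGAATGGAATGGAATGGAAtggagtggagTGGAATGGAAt

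The next 9 mostly masked TRBS by fold were intergenic with Chil4 (fold 15.8) and Egf (12.5) as nearest genes, in an intron of Cyp51, a sterol demethylase of cholesterol synthesis (10.98), far from Adgrl3 (10.5), nearest to Resf1 (7.98), in introns of Baz2b (7.32), Sox6 (7.27) and Zhx3 (7.23), and far from Dcn (6.99). Those at Adgrl3, Baz2b and Zhx3 are among the 5 that held a DR4. The site in Sox6 was an array of a 44-base unit, with 10 fragments over a background of 0.51.

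Another 6 mostly masked TRBS were arrays of the 6-base unit TTAGGG, the sequence of vertebrate telomeres, written on the opposite strand as CCCTAA. They were on chromosomes 2, 6, 10, 13, 14 and 18. Their folds were 3.48 to 6.84 with 10 to 50 fragments, over backgrounds of 0.61 to 10.7. The site 124780 bp upstream of the TSS of Fgf14 had 50 fragments (37.1 to 65.9) over 10.7, a fold of 4.38, and the one 21781 bp downstream of that of Gm14496 had 41 over 8.83, a fold of 4.27. None of the 6 held a DR4, and 3 were within 30 kb of a coding TSS, beside 32.1% and 57.1% of all autosomal TRBS. Input was thus well above its lowest level at several of these arrays, and whether reads from other copies contributed was not tested.

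The 24 satellite TRBS formed the largest group of related sequence. They were on chromosome 9 (21 sites between positions 3000305 and 3038223), chromosome 14 (2) and chromosome 2 (1), all mostly masked, and shared words at the summit. In 10 of them the summit window repeated with a unit within 1 base of 234, at 70.3% to 97.03% identity, the unit length of the mouse major satellite of pericentromeric chromatin. One unit around a summit on chromosome 9 is printed to show its sequence, rich in A and T.
Satellite, chr9:3003289-3003522, plus strand: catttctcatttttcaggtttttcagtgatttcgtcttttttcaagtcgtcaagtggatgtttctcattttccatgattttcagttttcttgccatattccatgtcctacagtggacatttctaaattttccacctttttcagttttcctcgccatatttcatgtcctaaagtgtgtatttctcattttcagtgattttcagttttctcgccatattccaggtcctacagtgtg

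These were the repeat-summit sites with the most fragments, and their folds were low. The folds lay between 1.93 and 3.35, over input backgrounds of 191 to 19940 fragments on the ChIP scale, while the median background of all repeat-summit TRBS was 0.67. Only 3 other repeat-summit TRBS had folds in this range, from 2.25 to 2.59, and they were short-unit arrays of the mostly masked class. For 7 of the 24 a whole number of fragments was recovered, from 377 to 4966. For the other 17 no whole number was recovered within the tolerance, and the backgrounds given for them are approximate. No DR4 with up to 3 mismatches and no half-site was found in the 24 sites, and their median GC content was 35.1%. All 24 reached a score of 60, and all lay within 30 kb of a coding TSS of a gene with a Gm number, a predicted gene.

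**Figure D4:**
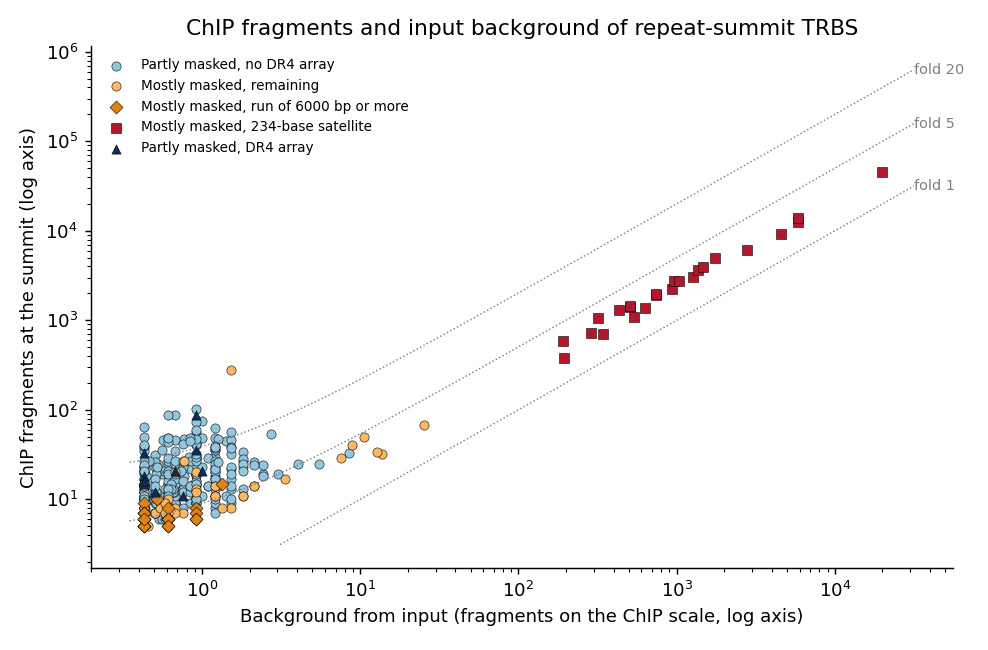
ChIP fragments at the summit against the background from input (both log axes, fragments on the ChIP scale) for the 430 repeat-summit TRBS; dotted lines mark folds of 1, 5 and 20, and fragments of 17 satellite TRBS are approximate. The satellite TRBS lie far to the right, at backgrounds of 191 to 19940, and the mostly masked TRBS in runs of 6000 bp or more lie at 5 to 15 fragments.

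A further 25 mostly masked TRBS lay in masked runs of 6000 bp or more, up to 13104 bp. They had 5 to 15 fragments, with fewer than 10 in 23 of them, and folds of 3.66 to 7.23. Their masked words were abundant in the genome, with a median of 10476 occurrences, and 23 had 1000 or more. Of these sites 21 were intergenic and 3 within 30 kb of a coding TSS, beside 38.01% and 57.1% of all autosomal TRBS. A score of at least 60 was reached by 3 of the 25 and a DR4 held by 2, beside 82.6% and 32.1%. The window with the most copies, 41110, was far from Amy2a5 and had 6 fragments and a fold of 4.90. It shared words with sites far from Atp10a and Gm8765, each also with 6 fragments.
Amy2a5, chr3:112286417-112286517, plus strand: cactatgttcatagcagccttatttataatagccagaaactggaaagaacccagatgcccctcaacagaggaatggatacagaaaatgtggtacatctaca

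The setting with which Bowtie2 made the deposited list is not given in the sources used here; the methods of the study name the default setting for another version. The part of reads that fit several copies in the fragments counted at these sites was not tested.

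The classes also differed in their distance to genes. The summit was within 30 kb of the TSS of a protein-coding gene in 57.1% of all autosomal TRBS. For the partly masked TRBS the share was 60.2% (201 of 334, 54.8% to 65.3%), a difference of 3.09 points from the other autosomal TRBS with an interval of −2.43 to 8.39. For the mostly masked TRBS it was 44.8% (43 of 96, 35.2% to 54.7%). When peaks scoring below 60 were left out the order was turned, with 65.9% of the mostly masked (27 of 41, of which 24 were satellite sites) and 60.7% of the partly masked TRBS. The value of 44.8% also rested on the satellite: without its 24 sites, 26.4% of the mostly masked TRBS (19 of 72, 17.6% to 37.6%) were within 30 kb, which was 33.8 points below the partly masked TRBS with an interval of −44.0 to −21.4.

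**Figure D5:**
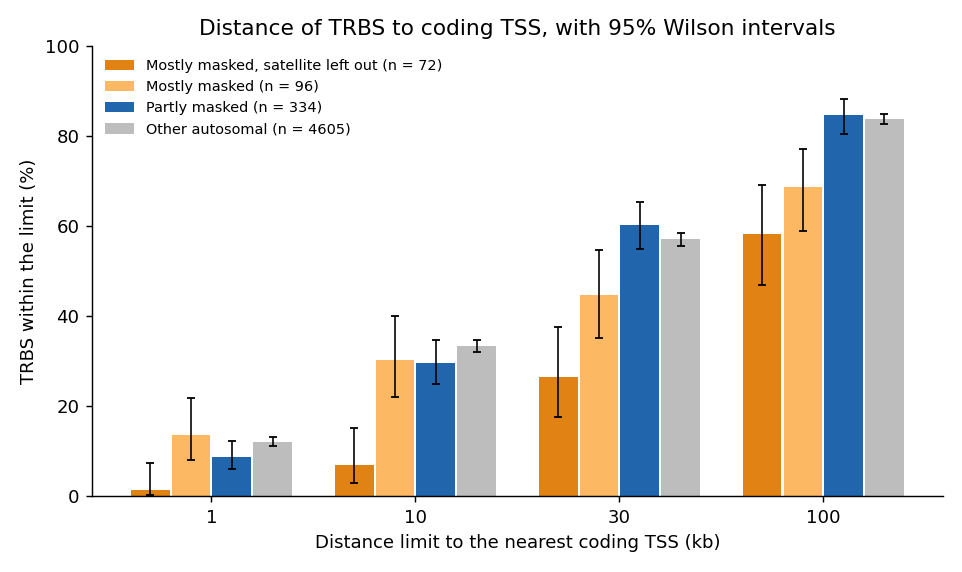
Share of TRBS (%) whose summit lies within 1, 10, 30 or 100 kb of a protein-coding TSS, for the mostly masked TRBS with and without the 24 satellite sites, the partly masked and the other autosomal TRBS; error bars are 95% Wilson intervals. Without the satellite the mostly masked TRBS are the lowest at each limit, with 26.4% within 30 kb, and the partly masked TRBS overlap the other autosomal TRBS at 30 kb.

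By annotation, 161 of the 334 partly masked summits were in introns, 139 between genes, 22 in promoters (from 1000 bp before to 100 bp after a TSS) and 12 in exons. Of all autosomal TRBS 47.3% were in introns, 38.01% between genes, 7.23% in promoters and 7.45% in exons. The intervals of the differences between partly masked and other autosomal TRBS included 0 for introns, promoters and the sequence between genes, whereas exons held 3.59% of the partly masked and 7.67% of the other autosomal TRBS, a difference of −4.07 points (−5.80 to −1.39). Of the 96 mostly masked summits 53 were between genes, 26 in introns, 10 in exons and 7 in promoters. The satellite held all 10 of these exon summits and 6 of the 7 in promoters, and without it 70.8% of the mostly masked summits (51 of 72) were between genes. Within 1 kb of a coding TSS were 8.68% of the partly masked and 12.1% of the other autosomal TRBS, a difference of −3.46 points whose interval, −6.20 to 0.17, included 0.

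Few repeat-summit TRBS lay close to another one. Summits within 10 kb of each other formed 11 loci, which held 42 of the 430 TRBS. The share of all autosomal TRBS in such loci was not worked out. The largest locus was the satellite of chromosome 9 with 21, and the second was Lipe with 3. The 9 other loci held 2 each, and the first 3 of them in genome order were those of Ackr3 (folds 9.95 and 23.0, both with a DR4), Eif4g3 (17.95 and 15.5) and Acacb. The pair upstream of Eif4g3, which encodes a translation initiation factor, shared words of the summit window. Each had a masked run of 34 bp, whose words had a median of 16 copies in the genome.

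Over all listed genes together, repeat-summit TRBS were found at about the rate of all coding genes that had a TRBS. Lists of thyroid hormone signalling, thermogenesis, lipid, glucose, clock, nuclear receptor and cofactor genes held 162 autosomal genes, of which 10 (6.17%) had a repeat-summit TRBS within 30 kb of the TSS, against 387 of 20807 autosomal coding genes (1.86%). TRBS of any kind were near 56.8% of the listed genes and 17.3% of all coding genes. Among genes with any TRBS, 10 of 92 listed genes (10.9%) and 387 of 3610 coding genes (10.7%) had one with a repeat summit. By list, and counted over the genes with any TRBS, these were 3 of 14 genes of lipid synthesis, 3 of 11 of the clock, 2 of 11 of glucose and insulin, 1 of 10 of thyroid hormone signalling and 1 of 8 of lipolysis and droplets. There were none at the 13 genes of brown fat and thermogenesis, the 11 of fatty acid oxidation and uptake, the 11 nuclear receptors and the 3 receptor cofactors with any TRBS, numbers too small to set a list apart from that rate.

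All 3 sites at Lipe, which encodes hormone-sensitive lipase, were in its introns, 5133 to 8219 bp downstream of the TSS, with folds of 12.6, 15.1 and 16.9 and no DR4 with at most 2 mismatches. Slc2a4, which encodes the insulin-regulated glucose transporter GLUT4, had a TRBS in its promoter, 337 bp upstream of the TSS, with 45 fragments over a background of 1.43 and a fold of 18.9. It held no DR4 with up to 3 mismatches. Its summit was near the edge of a masked run that holds a dinucleotide repeat, with the masked bases in capitals here.
Slc2a4, chr11:69948475-69948575, plus strand: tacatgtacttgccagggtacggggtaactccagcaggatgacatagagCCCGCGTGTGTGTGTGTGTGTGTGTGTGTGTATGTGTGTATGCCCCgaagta
Lipe, chr7:25390441-25390541, plus strand: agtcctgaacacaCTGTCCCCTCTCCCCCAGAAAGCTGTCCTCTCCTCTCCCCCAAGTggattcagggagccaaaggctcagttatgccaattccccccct

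Agpat2, an enzyme of triglyceride synthesis, had a TRBS 3205 bp upstream of its TSS with 42 fragments over a background of 0.76 and a fold of 24.5. It held 2 DR4 elements with 2 mismatches, the best wholly masked and centred 7.5 bp from the summit. Acacb, acetyl-CoA carboxylase of the mitochondrial surface, had one 267 bp upstream of its TSS (fold 13.1, no DR4) and one 9363 bp downstream in an intron (fold 4.18, a DR4 of 2 mismatches). Srebf1, a regulator of lipid synthesis genes, had one 2408 bp upstream (fold 6.80). The second site of Akt1 had a fold of 8.64, with no DR4 of at most 2 mismatches.

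Of the clock genes, Nr1d1, which encodes the repressor REV-ERBα, had a repeat-summit TRBS 8018 bp upstream (fold 9.52). Nfil3, a repressor of the clock output, had one in an intron (fold 6.24), and Bhlhe40, a repressor of clock genes, one 17562 bp downstream of its TSS (fold 4.41 with 6 fragments). The site assigned to Stat5a, a transcription factor of cytokine signalling, was in an exon of the neighbouring gene Stat3 (fold 6.27). None of these 4 held a DR4 with at most 2 mismatches, and all 4 held one with 3 mismatches. Of all autosomal TRBS 32.1% held one with at most 2 and 72.7% one with at most 3 mismatches, and 4 sites are too few to set apart from these shares.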

How the data were processed

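1 ChIP and 1 input library were used. Per the submitters' processing notes the reads were aligned to mm10 with Bowtie2 (2.3.2.2) and peaks were called with MACS2 (2.1.1.20160309.6). The authors deposited 1 peak list, in which the MACS score is 10 times the −log10 of the q-value, rounded down, the fold is the ratio of pileup to background with 1 added to both, and the −log10 p-value comes from a Poisson test. The list also holds peaks with a score under 60. Library depths are not given in the sources used here. Fragments were recovered from fold and p-value (tolerance 0.0005 in −log10 p), for 5018 of the 5035 autosomal peaks.

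Masking was read from GRCm38.p6 (NCBI, the tool that made it is not named in the sources used here) and genes from GENCODE M21, with 21938 protein-coding genes. Searches ran in Python 3.11.15 (numpy 2.4.6, scipy 1.17.1, numba 0.67.0) and were tested on simulated sequence. Copies are exact occurrences of 16-base words on both strands. Types were set over the summit base and 50 bases on each side: short-unit arrays at 80% identity for units up to 60 bases, long-unit arrays at 70% for 61 to 500 bases. Named sites were the 10 with the highest fold in each class, all with a DR4 of at most 1 mismatch, those within 30 kb of listed genes, the 5 densest loci and those beside the 80% limit. The members and lists were chosen with earlier results of these data known. Some of the sites and sequences that this choice gave are not reported here.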

Additional observations from a re-analysis of the deposited data

How the results depend on the processing

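Of 60 alternatives to the shares and medians, 22 left the value within its 95% interval (for medians, the interval from order statistics) and 38 did not. None is a test, since there was 1 ChIP library, and there was no replicate to leave out. No paired analysis was possible because each group had 1 sample. Fewer than 10 fragments at 106 of the 430 repeat-summit TRBS limit the precision of their folds.

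With a score of at least 60, 7.53% of autosomal TRBS had a repeat summit, and 13.1% of these were mostly masked. The DR4 share became 39.6% in repeat-summit and 34.1% in other TRBS, the share within 30 kb 65.9% for mostly masked and 60.7% for partly masked TRBS (a turned order, with 24 of the 41 mostly masked sites in the satellite), the median folds 2.85 (mostly masked) and 10.5 (partly masked), the short-unit arrays 3.51% and the high-copy share 16.9%. Without sites of input background over 100 fragments, 26.4% of mostly masked TRBS were within 30 kb and their median fold was 4.84.

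When at least 50 percent of the summit window had to be masked, 4.95% of TRBS qualified. With 80% of this window, or 50% of the interval, 30.5% and 33.7% were mostly masked. With at most 1 mismatch the DR4 shares were 7.44% (repeat-summit), 0% (mostly masked), 9.58% (partly masked) and 7.25% (other), and with at most 3 they were 62.6%, 16.7%, 75.7% and 73.7%. Of masked DR4 sites 1.01% and 0.12% were then in a TRBS. Within 100 bp of the summit 26.8% of other TRBS held a DR4. The limits of 10 kb, 100 kb and genes of all types gave 29.8%, 81.2% and 81.6% (repeat-summit), 30.2%, 68.75% and 75% (mostly masked), and 29.6%, 84.7% and 83.5% (partly masked). At 1000 copies 9.07% were high-copy.

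Leaving out TRBS with a DR4 array, and counting only unmasked elements, were chosen after seeing the data. The first gave 41.7% for partly masked TRBS. The second gave 15.3% (repeat-summit), 19.8% (partly masked) and 29.3% (other), so that the order of the last pair was turned.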
